A study of Mus musculus with 4 samples.

Results

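The 10 genes described here encode proteases of the lysosome, 9 cathepsins (Ctsa, Ctsb, Ctsc, Ctsd, Ctse, Ctsh, Ctsl, Ctss and Ctsz) and the asparaginyl endopeptidase legumain (Lgmn). They were chosen by symbol, and each of the 10 had a value in every library, among 17823 genes with values and 23136 genes listed. RNA from blood of C57BL/6 mice was sequenced after 30 days of treatment; the labels give their age as adult, and the study describes them as aging. The Nar group received naringenin (Nar), a flavonoid, through the tail vein, and the Ctrl group an equal volume of PBS. Each group holds 2 libraries, which the labels number 1 and 3. The labels do not say that each library is a separate animal, so the tests measure only the spread between these libraries.

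Lysosomal proteases degrade proteins taken up from outside the cell or delivered by autophagy. They are made as inactive precursors and are activated in the acid lumen of the lysosome. Phagocytes such as monocytes and neutrophils hold many of them, and some have second tasks in antigen presentation and in the activation of granule enzymes. Red cells lose their lysosomes while they mature, but young red cells are known to carry cathepsin E.

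Levels are given in FPKM, fragment counts scaled to transcript length and to the mapped total of the library, so levels of different genes can be compared per length. Differences are log2 fold changes of FPKM + 0.1, Nar minus Ctrl, and a gene passed the test at a Benjamini-Hochberg adjusted p under 0.05 in limma over 5339 genes with a mean of at least 0.5 FPKM. All 10 protease genes met that minimum. Haemoglobin genes took 92.6% to 96.4% of the summed FPKM, with both Nar libraries above both Ctrl libraries, and the typical tested gene had a log2 fold change of -1.07 (median). A second scaling, median-of-ratios, levels the typical gene between libraries and moved that median to -0.06. When haemoglobin genes were dropped before scaling, the median was -0.61 over 5329 genes. In blood, fewer cells of a type and less RNA per cell cannot be told apart.

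With Nar, 5 of the 10 genes fell (Ctsa, Ctsc, Ctsh, Ctsl and Ctss) and 0 rose in limma, where 39.6% of all tested genes were lower and 0.187% were higher. With haemoglobin genes removed the count was 0, and the log2 fold changes of the 5 ran from -1.01 (Ctsh) to -2.01 (Ctsl). Leaving out any 1 library lost most or all of the calls. The log2 fold changes of the 5 then ran from -1.20 (Ctss, without Ctrl 1) to -2.59 (Ctsc, without Nar 1). With all genes and libraries kept, the 5 falls were between 2.89-fold (Ctsh) and 4.25-fold (Ctsl) on the FPKM + 0.1 scale. At an unadjusted p under 0.05, 6 genes were lower and 0 were higher, where 3036 of 5339 tested genes passed in either direction. Both Nar libraries lay below both Ctrl libraries for 8 of the 10 genes, against 78.3% of all tested genes, and above them for none of the 10, against 1.27%. The exceptions were Ctsb and Ctse, whose groups overlapped. The median log2 fold change of the 10 genes was -1.46. After median-of-ratios scaling, 0 of the 10 were called in either direction, where 0.356% of tested genes were lower and 0.112% were higher, and at an unadjusted p under 0.05 Ctsl was lower and Ctsb higher, where 745 of 5339 tested genes passed. On that scale the log2 fold changes of the 5 genes were -0.61 (Ctsa), -0.95 (Ctsc), -0.45 (Ctsh), -1.22 (Ctsl) and -0.63 (Ctss). The shares of protease genes that fell or did not overlap were thus near those of all genes.

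**Figure D1:**
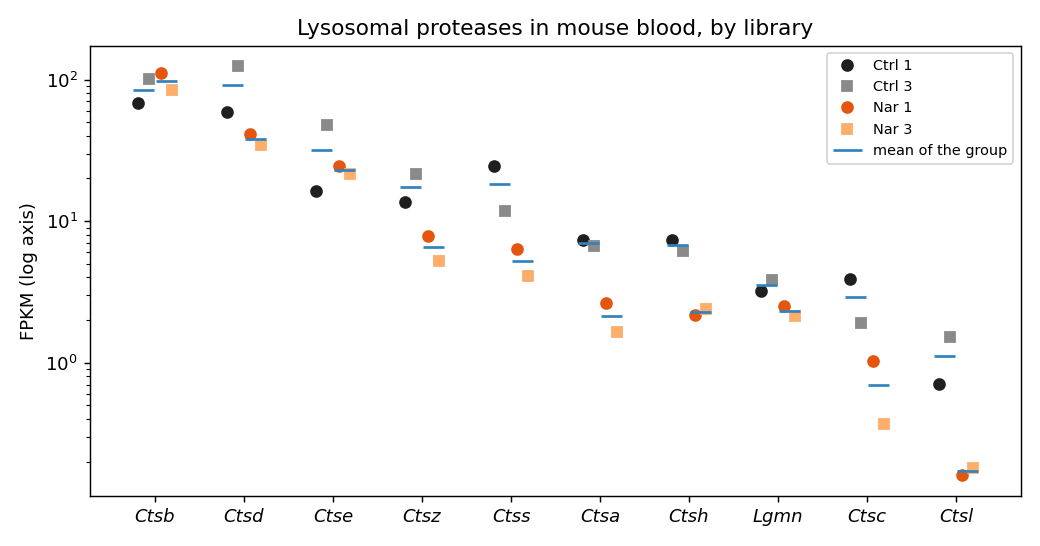
FPKM on a log axis of the 10 protease genes, ordered by mean level, with 1 point per library (Ctrl black and grey, Nar orange) and a line at each group mean. The Nar points lie below the Ctrl points for 8 genes, between them for Ctse, and for Ctsb 1 Nar point lies above both Ctrl points.

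Promoter sequences were found in the RefSeq table (build GRCm38.p6) for 7 of the 10 genes, and those of Ctsb, Ctse and Ctsh were not among them. They are shown because lysosomal genes are known to share an E-box, the CLEAR element bound by TFEB and TFE3, and because myeloid genes are often bound by PU.1. Windows of 250 bases before to 50 bases after each start were searched on both strands. The E-box core TCACGTG, which overlaps its own match on the other strand where it reads TCACGTGA, was present for 3 of the 7 genes (Ctsa, Ctsd and Lgmn) and in 4.29% of 27025 genes. The PU.1 core GAGGAAGT was present for 2 (Ctsc and Ctss) and in 3.69% of genes. The interferon regulatory factor motif, GAAA, any 2 bases and GAAA again, was present for Ctss and in 3.99% of genes, and the GATA motif AGATAA for Ctsz and in 12.7%. These matches describe letters and were not tested as binding sites. The stretches below read 5′ to 3′ on the strand of the gene, with the motif or its reverse complement in capitals. For Ctsa they lie at chr2:164833748-164833777 and chr2:164833765-164833794, for Ctsd at chr7:142388048-142388077 and chr7:142387909-142387938, for Lgmn at chr12:102439125-102439154, for Ctsc at chr7:88277923-88277952, and for Ctss at chr3:95526773-95526802.
Ctsa, E-box 1: atgagcaaactgTCACGTGatgcagatgct
Ctsa, E-box 2: tgatgcagatgcTCACGTGaccagagctac
Ctsd, E-box 1: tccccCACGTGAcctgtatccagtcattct
Ctsd, E-box 2: ctcgcccgcgtcTCACGTGacccgttgagg
Lgmn, E-box: atggaatgtctgTCACGTGgtccattttat
Ctsc, PU.1 core: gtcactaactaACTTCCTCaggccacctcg
Ctss, PU.1 core: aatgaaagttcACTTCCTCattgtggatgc

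Of the aspartic proteases, Ctse (NCBI Gene 13034, GRCm38 chromosome 1, 131638314 to 131675507) had control values of 16.4 (Ctrl 1) and 47.5 FPKM (Ctrl 3) and Nar values of 24.4 (Nar 1) and 21.6 FPKM (Nar 3). Both Nar libraries lay between the Ctrl libraries, which differed from each other by more than the groups did. The control mean was 32.0 ± 21.9 FPKM (SD, n = 2) and the Nar mean 23.0 ± 1.95 FPKM (SD, n = 2). The log2 fold change of -0.28 had an unadjusted 95% interval from -1.66 to 1.09 (limma adjusted p = 0.692), so both a 2-fold fall and a 2-fold rise lay inside it. Its sign rested on the scaling and on a single control: it was 0.82 after median-of-ratios scaling, 0.28 with haemoglobin genes removed and 0.48 without Ctrl 3, and -1.04 without Ctrl 1.

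Ctsd (NCBI Gene 13033, GRCm38 chromosome 7, 142375910 to 142387827), the main aspartic protease of the lysosome, had control values of 58.7 (Ctrl 1) and 123.9 FPKM (Ctrl 3) and Nar values of 41.2 (Nar 1) and 34.2 FPKM (Nar 3). The groups did not overlap, but the higher control was more than 2-fold above the lower. The log2 fold change was -1.18 (standard error 0.551, limma adjusted p = 0.10), close to the median of all tested genes, and 40.9% of tested genes had a lower one. After median-of-ratios scaling it was -0.07.

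Among the cysteine endopeptidases, Ctsb (NCBI Gene 13030, GRCm38 chromosome 14, 63122462 to 63145923), an abundant lysosomal enzyme that also trims peptides from the C-terminal end, had control values of 67.9 (Ctrl 1) and 100.8 FPKM (Ctrl 3) and Nar values of 111.2 (Nar 1) and 84.8 FPKM (Nar 3). The lowest value was a control and the highest a Nar library, and the other values lay between them. The control mean was 84.3 ± 23.3 FPKM (SD, n = 2) and the Nar mean 98.0 ± 18.7 FPKM (SD, n = 2). The log2 fold change was 0.23, with an unadjusted 95% interval from -0.90 to 1.36 (limma adjusted p = 0.695), and 96.1% of tested genes had a lower one. Median-of-ratios scaling moved it to 1.34, with an interval from 0.21 to 2.47 and a limma adjusted p of 0.268. Without Ctrl 1 it was -0.05 on the deposited scale.

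Ctss (NCBI Gene 13040, GRCm38 chromosome 3, 95526786 to 95556405), which cleaves the invariant chain of MHC class II in antigen-presenting cells, had control values of 24.7 (Ctrl 1) and 11.8 FPKM (Ctrl 3) and Nar values of 6.38 (Nar 1) and 4.06 FPKM (Nar 3). It fell with Nar by 1.73 on the log2 scale (standard error 0.546, limma adjusted p = 0.0379), a call lost with the replicate block (adjusted p = 0.0752). Ctrl 3 lay nearer to Nar 1 than to Ctrl 1 in FPKM. Ctsl (NCBI Gene 13039, GRCm38 chromosome 13, 64361890 to 64370772), a broad endopeptidase, had the lowest level of the 10 genes, at 0.71 and 1.52 FPKM in Ctrl 1 and Ctrl 3 and 0.16 and 0.18 FPKM in Nar 1 and Nar 3. It fell by 2.09 on the log2 scale (standard error 0.474, limma adjusted p = 0.0177). Values this low are coarse at 2 decimals and depend on the pseudocount, and the log2 fold change was -0.83 with a pseudocount of 1 and -2.55 with 0.01.

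The exopeptidases Ctsc, Ctsh and Ctsz were lower in both Nar libraries than in both Ctrl libraries. Ctsc (NCBI Gene 13032, GRCm38 chromosome 7, 88278024 to 88315861), dipeptidyl peptidase 1, activates the serine proteases of neutrophil and lymphocyte granules, and was listed at 3.87 and 1.91 FPKM in Ctrl 1 and Ctrl 3 and at 1.02 and 0.37 FPKM in Nar 1 and Nar 3. It fell by 1.96 on the log2 scale (standard error 0.505, limma adjusted p = 0.0234). The log2 fold change was -1.18 with a pseudocount of 1, and ran from -2.59 without Nar 1 to -1.33 without Nar 3, where it did not pass. The aminopeptidase Ctsh (NCBI Gene 13036, GRCm38 chromosome 9, 90054267 to 90076095) had close replicates, at 7.39 and 6.17 FPKM in controls and 2.16 and 2.39 with Nar. Its fall was by 1.53 on the log2 scale (standard error 0.420, limma adjusted p = 0.0267), also lost with the replicate block (adjusted p = 0.0615). The carboxypeptidase Ctsz (NCBI Gene 64138, GRCm38 chromosome 2, 174427494 to 174439039) had 13.6 and 21.3 FPKM in controls and 7.85 and 5.26 with Nar. Its log2 fold change of -1.39 (standard error 0.509) did not pass in limma, with an adjusted p of 0.0545. It passed in 2 of 14 fits under alternatives, among them that without limma's trend (adjusted p = 0.0427). It did not pass with the replicate block (0.146) or without haemoglobin genes (0.23). Median-of-ratios scaling brought it to -0.29 (limma adjusted p = 0.925).

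Ctsa (NCBI Gene 19025, GRCm38 chromosome 2, 164832872 to 164841032) is a serine carboxypeptidase that also protects beta-galactosidase and neuraminidase in the lysosome. It had 7.30 and 6.62 FPKM in Ctrl 1 and Ctrl 3 and 2.62 and 1.65 in Nar 1 and Nar 3. Ctsa fell by 1.69 on the log2 scale (standard error 0.440, limma adjusted p = 0.0240). After median-of-ratios scaling it was at -0.61 and was not called (limma adjusted p = 0.604). Lgmn (NCBI Gene 19141, GRCm38 chromosome 12, 102394082 to 102439728) cleaves after asparagine and helps to mature several cathepsins. It had 3.18 and 3.84 FPKM in controls and 2.51 and 2.12 with Nar, so the groups did not overlap but lay close together. Its log2 fold change was -0.58 (standard error 0.401, limma adjusted p = 0.230), and 0.49 after median-of-ratios scaling.

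**Figure D2:**
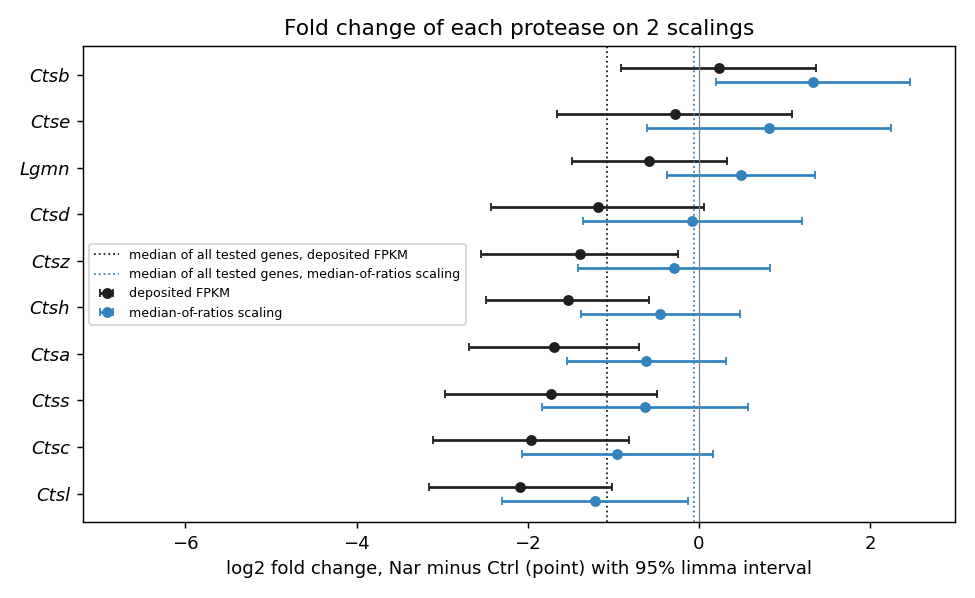
Log2 fold change (Nar minus Ctrl) of each protease gene with its unadjusted 95% limma interval, on the deposited FPKM (black) and after median-of-ratios scaling (blue), beside the median of all tested genes on each scale (dotted). Ctsb, Ctse and Lgmn lie above the median and the other 7 genes below it on both scales, with Ctsd closest to it.

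The make-up of the protease transcripts, which no scaling of a library can move, differed between the groups in these libraries and was not tested. Of the summed FPKM of the 10 genes, Ctsb took 33.3% (Ctrl 1) and 31.0% (Ctrl 3) without Nar but 55.7% (Nar 1) and 54.1% (Nar 3) with it. The controls gave Ctsd 28.8% and 38.1% and the Nar libraries 20.7% and 21.8%, and Ctss went from 12.1% and 3.63% to 3.20% and 2.59%. The share of Ctse was 8.07% and 14.6% in the controls and 12.2% and 13.8% in the Nar libraries, so the groups overlapped. Summed over the 10 genes, the level was 203.8, 325.3, 199.5 and 156.6 FPKM in the same order of libraries, which made up 0.273%, 0.297%, 0.302% and 0.275% of all FPKM outside the haemoglobin genes. The proteases together thus took a like share of the non-haemoglobin signal in both groups, with the Nar values inside or close to the range of the controls. Ctsb held more of the protease sum in both Nar libraries. Its ratio to a gene outside the 10 was also higher in both Nar libraries for 87.1% of 5329 tested genes.

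**Figure D3:**
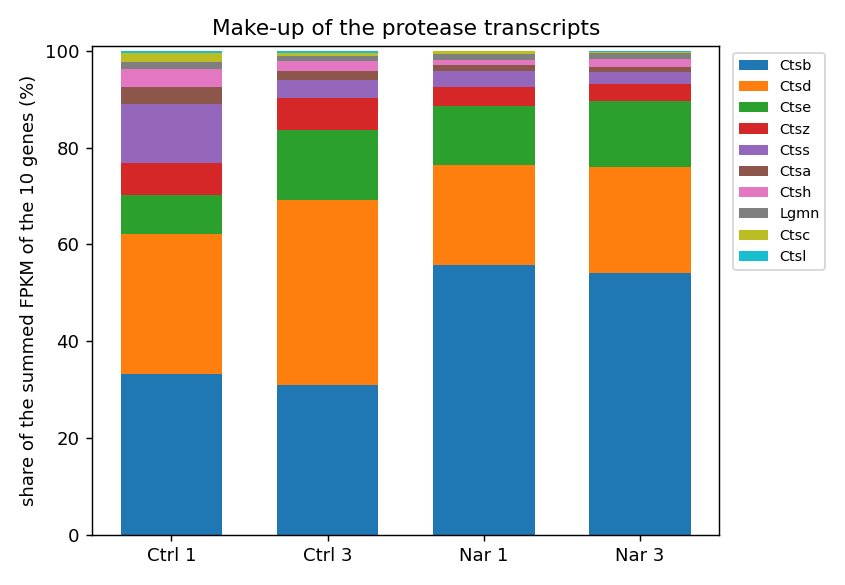
Share of the summed FPKM of the 10 protease genes taken by each gene, in percent, with 1 bar per library. Ctsb fills 31.0% and 33.3% of the Ctrl bars and 54.1% and 55.7% of the Nar bars.

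By mean level, Ctsd and Ctsb led in controls, at 91.3 and 84.3 FPKM, with overlapping libraries, and Ctsb was already above Ctsd in Ctrl 1. Ctse, Ctss and Ctsz followed at 32.0, 18.2 and 17.5 FPKM, and each overlapped its neighbour. Ctsa and Ctsh, at 6.96 and 6.78 FPKM, could not be ordered either, nor could Lgmn and Ctsc at 3.51 and 2.89, and Ctsl came last at 1.11. With Nar, Ctsb at 98.0 FPKM stood clear of Ctsd at 37.7, Ctsd of Ctse at 23.0, and Ctse of Ctsz at 6.55. Ctsz overlapped Ctss at 5.22, and Lgmn, Ctsh and Ctsa lay within each other's ranges at 2.31, 2.27 and 2.13, ahead of Ctsc at 0.695 and Ctsl at 0.170.

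Ctse, known in red cells, was compared with each other member by the log2 ratio of the pair within a library, which does not move when a library is rescaled apart from the small pseudocount. The ratio was higher in both Nar libraries than in both Ctrl libraries for 5 of 9 pairs, those with Ctsa, Ctsd, Ctsh, Ctsl and Ctsz. It overlapped for the pairs with Ctsb, Ctsc, Ctss and Lgmn. For comparison, the ratio of Ctse to a tested gene outside the 10 was higher in both Nar libraries for 46.3% of 5329 genes. Of the 6 cathepsins taken as myeloid (Ctsb, Ctsc, Ctsd, Ctsh, Ctss and Ctsz), 3 pairs were higher and 3 overlapped. Among these, Ctsb had a log2 fold change of 0.23, nearer to the erythroid marker median of 0.34 than to the monocyte one of -1.66. Which cells its transcripts came from was not tested.

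The pair with Ctsd, the other aspartic protease, was the most even between the controls. Its log2 ratio was -1.83 (Ctrl 1) and -1.38 (Ctrl 3) against -0.75 (Nar 1) and -0.66 (Nar 3), which is 0.90 higher with Nar. With Ctsl the controls were at 4.35 and 4.88 and the Nar libraries at 6.56 and 6.28, 1.80 higher. With Ctss it was -0.58 in Ctrl 1 and 2.00 in Ctrl 3, a gap between controls larger than the group difference of 1.44, and with Nar it was 1.92 and 2.39. Against Ctsb the overlap was close, with -2.04 and -1.08 in controls, -2.18 and -1.97 with Nar, and -0.51 as the difference between the means. The exact permutation test, two-sided over the 4 libraries, gave p = 0.33 for each of the 5 pairs that did not overlap, which is the smallest value that 2 libraries against 2 can give, and 0.59 after Benjamini-Hochberg adjustment over the 9 pairs. The median of the 9 differences between the group means was 1.25. When the median over the 9 pairs was taken first within each library, it was 1.14 (Ctrl 1), 2.82 (Ctrl 3), 3.17 (Nar 1) and 3.13 (Nar 3), and the difference of 1.17 between the group means was 0.32 without Ctrl 1 and 2.01 without Ctrl 3.

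The same ratios of Ctsb, looked at after its values were seen and so given with no test, were higher in both Nar libraries for all 8 of the other members apart from Ctse. The differences ran from 0.81 (Lgmn) to 2.32 (Ctsl), with a median of 1.84. Against Ctsd the log2 ratio was 0.21 (Ctrl 1), -0.30 (Ctrl 3), 1.43 (Nar 1) and 1.31 (Nar 3), and against Ctsz it was 2.31, 2.23, 3.81 and 3.99 in the same order. The background is high, since the ratio of Ctsb to a tested gene outside the 10 was higher in both Nar libraries for 87.1% of 5329 genes.

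**Figure D4:**
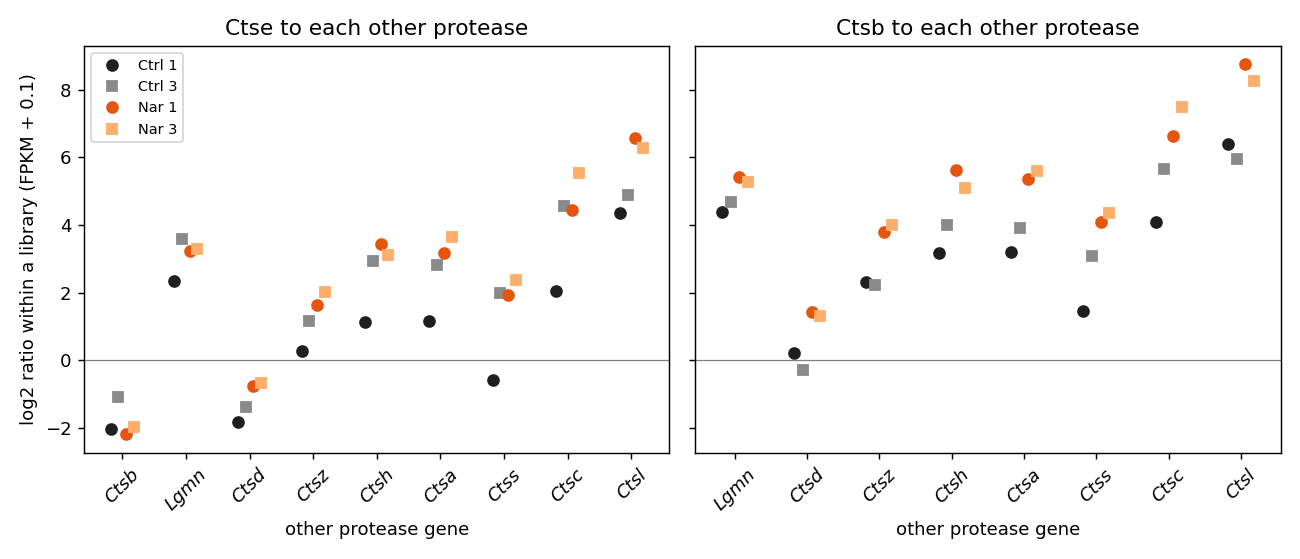
Log2 ratio of Ctse (left) and Ctsb (right) to each other protease gene within a library, with 1 point per library. For Ctse the Ctrl 1 point is the lowest in 8 of the 9 pairs, and for Ctsb both Nar points lie above both Ctrl points in all 8 pairs.

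The genes whose pattern over the 4 libraries was most like that of Ctse were Rbm38, Txn2, Sept1, Cct7 and Galnt1, among 1078 genes with a mean of at least 5 FPKM. Likeness was the root mean square difference of log2 values centred on their own mean, which was 0.0733 for Rbm38 and 0.144 for Galnt1. Rbm38 had 13.8 and 42.1 FPKM in controls and 23.7 and 19.4 with Nar. The nearest protease gene was Ctsb, at 0.431, followed by Lgmn at 0.470 and Ctsd at 0.479, and the farthest was Ctsc at 1.28. For Ctsb the nearest were Iscu at 0.0175, an unnamed gene listed as BGIG10090_47812 at 0.0247, Bsdc1 at 0.0350, Tax1bp1 at 0.0372 and Tent5c at 0.0453. Iscu had 74.1 and 112.5 FPKM in controls and 122.3 and 95.5 with Nar, and the nearest protease gene was Lgmn at 0.422. These distances describe 4 libraries.

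The controls differed from each other for most of the 10 genes. From Ctrl 1 to Ctrl 3 the log2 difference was 1.52 for Ctse, 1.08 for Ctsd, 1.00 for Ctsl, 0.64 for Ctsz, 0.57 for Ctsb and 0.26 for Lgmn. It was -1.06 for Ctss, -0.98 for Ctsc, -0.26 for Ctsh and -0.14 for Ctsa. Between the same libraries, the median of 11 platelet marker genes differed by 1.42 and that of 19 erythroid marker genes by 0.78, while 12 monocyte marker genes differed by -1.36 and 13 neutrophil marker genes by -0.39. Summed platelet markers stood at 2648 FPKM in Ctrl 3 and at 525.9 to 806.5 FPKM in the other libraries. The part of these cells in the protease values was not tested.

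Of the marker genes of blood cells, all 13 tested neutrophil markers fell with Nar, with a median log2 fold change of -3.58, and their sum was 1758 and 1447 FPKM in controls against 106 and 166 FPKM with Nar. Of 12 tested monocyte markers, 6 fell, a share near the 39.6% of all tested genes, with a median of -1.66 and sums of 396 and 475 FPKM against 161 and 104 FPKM. Those 6 included Cd14, the co-receptor for endotoxin, at 14.7 and 11.9 FPKM in controls and 0.44 and 0.75 with Nar. Of 19 erythroid markers other than haemoglobin, 0 were called in limma in either direction, 0 also at an unadjusted p under 0.05, and the median was 0.34. After median-of-ratios scaling, where 0.356% of tested genes were lower, 3 neutrophil markers and 1 monocyte marker fell (13 and 3 lower at an unadjusted p under 0.05), and the medians were -2.51 for neutrophil, -0.57 for monocyte and 1.42 for erythroid markers, of which 0 were called and 16 were higher at an unadjusted p under 0.05. Of the lymphocyte lists, 0 of 10 B cell, 0 of 9 T cell and 1 of 6 NK cell markers fell and 0 rose in limma (0, 2 and 3 lower and 0 higher at an unadjusted p under 0.05), and 0 of 11 platelet markers were called (1 lower unadjusted). After median-of-ratios scaling 0, 0 and 0 of the lymphocyte lists were lower and 3, 1 and 0 higher at an unadjusted p under 0.05, and the median turned from -0.38 to 0.67 for B cell and from -0.47 to 0.51 for T cell markers. Of 10 tested haemoglobin genes 2 rose and 0 fell in limma, where 0.187% of all tested genes were higher. After median-of-ratios scaling 4 rose, against 0.112%. The median log2 fold change of the 10 was -0.07 on the deposited scale and 1.04 after that scaling. On the deposited scale both Nar libraries lay below both Ctrl libraries for 3 of the 10 and above them for 2, against 78.3% and 1.27% of all tested genes. No dendritic cell marker and 1 basophil marker, Mcpt8, reached the minimum for testing. Tissue macrophage markers, among them the complement genes C1qa, C1qb and C1qc, summed to between 0.22 and 1.49 FPKM, and Vsig4 was listed at 0 in all 4 libraries. The part of neutrophils, monocytes and red cells in the fold changes of the proteases was not tested.

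**Figure D5:**
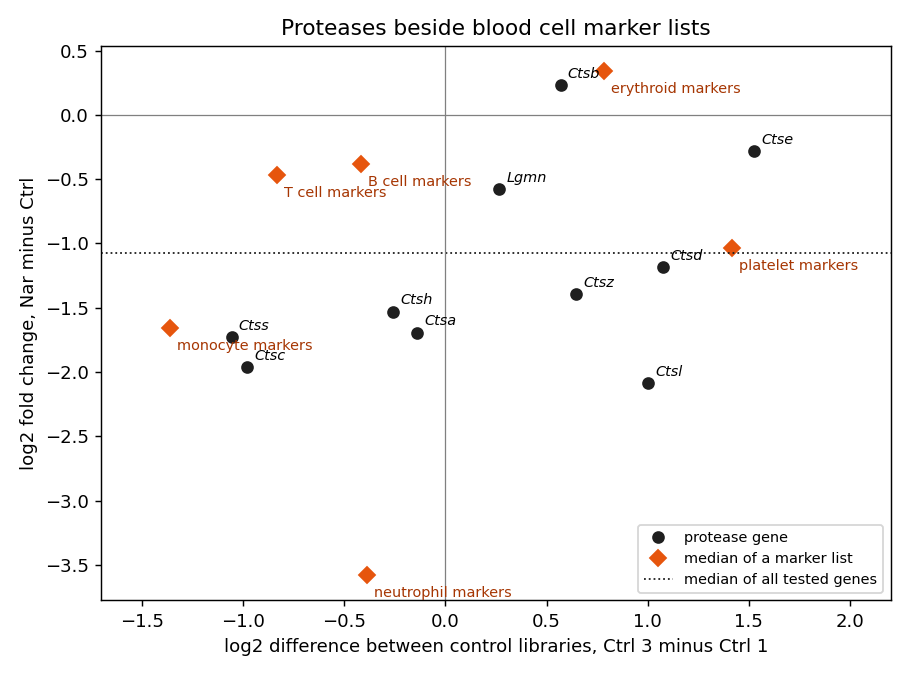
Log2 difference between the control libraries (x) against the log2 fold change, Nar minus Ctrl (y), for each protease gene (black) and for the median of each blood cell marker list (orange diamonds), with the median of all tested genes dotted. Ctsb lies beside the erythroid list (0.34 on the y axis), Ctss near the monocyte list (-1.66), and no protease gene comes near the neutrophil list (-3.58).

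Of 103 other lysosomal genes and protease inhibitors listed, 70 were tested, and in limma 38 of them (54.3%, against 39.6% of all tested genes) fell and 0 rose, with a median log2 fold change of -1.29. After median-of-ratios scaling 1 was called lower and 0 higher. Of the 70, 3 (Ctsf, Acp5 and Slc17a5) had a log2 fold change above 0 on the deposited scale, where 338 of all 5339 tested genes did. None of the 3 passed the test. Of the hydrolases of lipids, peptides and other substrates, 11 of 14 fell, led by Plbd1 (log2 fold change -2.38) and Asah1, acid ceramidase (-2.24). Among glycosidases and sulfatases 5 of 12 fell, including Man2b1, lysosomal alpha-mannosidase (-1.64), and Hgsnat (-1.64). Lysosomal membrane proteins gave 5 of 10, with Cd63 at -2.21 and the divalent metal transporter Slc11a1 at -2.11. Subunits of the vacuolar ATPase, the pump that acidifies the lysosome, gave 4 of 15, from Atp6v1b2 at -1.65 to Atp6v0d1 at -0.19, which did not pass.

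Of 5 tested genes of transport to the lysosome 2 fell, a share near the 39.6% of all tested genes. Gga1, an adaptor of the mannose 6-phosphate receptors, fell by 1.61 on the log2 scale. Gnptg, a subunit of the enzyme that makes the mannose 6-phosphate tag, fell by 1.44 but did not pass with the replicate block (limma adjusted p = 0.0576). The receptor gene M6pr was at -0.87 (limma adjusted p = 0.103). Tfeb and Tfe3, the transcription factors named with the E-box above, fell by 1.12 and 1.18 on the log2 scale (limma adjusted p = 0.0424 and 0.0317), from 1.55 and 0.97 FPKM in controls to 0.54 and 0.48 with Nar for Tfeb. After median-of-ratios scaling they were at -0.14 and -0.16 and were not called.

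The cystatins and stefins, inhibitors of cysteine cathepsins, had the lowest median of the lysosomal lists. Of 10 tested genes of that list 8 fell, where 39.6% of all tested genes were lower. The median log2 fold change was -2.69, from -5.04 (Stfa2l1) to -1.29 (Serpinb6a, a serine protease inhibitor that did not pass). Stfa2l1 and Gm5483 (-4.18) belong to a cluster of near-identical stefin genes between which reads can be split, so their single values are uncertain. Cystatin C, encoded by Cst3, had 32.9 and 34.7 FPKM in controls and 12.6 and 14.0 with Nar, for a log2 fold change of -1.34 (limma adjusted p = 0.0542). After median-of-ratios scaling the median of the list was -1.69 and 1 gene was called lower, where 0.356% of all tested genes were.

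Partners of single proteases were looked at beside them. Cd74, the invariant chain that Ctss cleaves, was at 105.0 and 111.4 FPKM in controls and 66.4 and 62.8 FPKM with Nar, and its log2 fold change of -0.74 did not pass (limma adjusted p = 0.200). The tested MHC class II genes H2-Aa and H2-Ab1 were at -0.65 and -0.84 and did not pass either, while Ctss itself passed. Whether Ctss and Cd74 differed in their change was not tested. Of the granule proteases that Ctsc activates, the lymphocyte genes Gzma and Gzmb fell by 1.72 and 2.05 on the log2 scale, were at -0.63 and -1.02 after median-of-ratios scaling (limma adjusted p = 0.680 and 0.322), where neither passed, and Gzma did not pass with the replicate block (0.0653). The neutrophil genes Elane, Prtn3 and Ctsg had at most 0.73 FPKM in any library, and their means over the libraries were below the minimum for testing. Of the cathepsins outside the 10, Ctsw, expressed in cytotoxic lymphocytes, fell by 1.39 on the log2 scale, Ctsf was at 0.33 and did not pass, and Ctsg, Ctsk and Ctso were too low to test.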

How the data were processed

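RNA-seq libraries from mouse blood were used, 2 Ctrl and 2 Nar, grouped by their labels. Messenger RNA was selected with oligo(dT) beads. The methods name bowtie-2 as the aligner, against gene sequences, and DEGseq for differential expression, whereas the submitters' processing notes name TopHat2, Cufflinks and GRCm38, with no versions. The values deposited by the authors are FPKM with 2 decimals, 1 column per library, and 0 columns were left unmatched. Of 23136 genes, 5313 were blank in every library and were left out. Low values were searched for the step that 1 read is worth, with GENCODE lengths, and no clear step was found, so depth is unknown and no counting error is given.

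FPKM is a share of a library: where haemoglobin takes more, every other gene takes less. Values were compared as log2(FPKM + 0.1) for genes with a mean of at least 0.5 FPKM, in limma 3.58.1 (R 4.3.3, trend, no block). The code was run on simulated data with the same spread for every gene, smaller than here, and no general shift. That simulation cannot show how the test performs on data like these. Every adjusted p for a gene is from limma with Benjamini-Hochberg adjustment over 5339 genes. Alternatives were the scalings, pseudocounts of 1 and 0.01, no filter or a mean of at least 5 FPKM, no trend, a replicate block and leaving out each library. Ratios were tested by exact permutation in scipy 1.17.1, and plots were drawn with matplotlib 3.10.9. The 10 genes, the lists and the tests were chosen with earlier results of these data known. Named genes were the 10, the 2 lowest and 2 highest log2 fold changes of each list (from which examples are given) and the 5 genes most like Ctse and Ctsb. Other named genes and the promoter motifs were chosen after the values were seen. Coordinates, promoters and gene spans are from RefSeq on GRCm38.p6.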

Additional observations from a re-analysis of the deposited data

How the results depend on the processing

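Of the 5 genes called lower, the call was lost in 36 of 66 fits under alternatives. The other 5 genes gained a call in 3 of 69 fits. The cause was not tested. The sign turned in 5: Ctse at 0.82 (median-of-ratios scaling), 0.28 (haemoglobin genes removed) and 0.48 (without Ctrl 3), Lgmn at 0.49 (median-of-ratios scaling) and Ctsb at -0.054 (without Ctrl 1). Leaving out 1 library gave -0.054 to 0.515 for Ctsb and -1.04 to 0.48 for Ctse. Over all genes, limma called 2113 lower and 10 higher. Median-of-ratios scaling gave 19 and 6, haemoglobin removal 242 lower, TPM 6 higher, and no trend 4 higher. Without the filter, limma called 0 lower and 0 higher of 16382 genes (4978 at an unadjusted p under 0.05), and a mean of at least 5 FPKM gave 116 and 1. The crossed replicate block, chosen after seeing the data because same-numbered libraries deviated in opposite directions (correlation -0.153 across genes), gave 3211 and 22.

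Of the 10 genes, limma called 5 lower. It was 0 with median-of-ratios scaling, with haemoglobin removed and without the filter (1, 6 and 6 lower at an unadjusted p under 0.05, where 745 of 5339, 1151 of 5329 and 4978 of 16382 genes passed in either direction), and 1 of 5 tested genes (Ctss) with a mean of at least 5 FPKM. With the replicate block, where samples share only a number, it was 3, as Ctsh and Ctss were lost, and 1802 of 5339 genes were lower. It was 6 without the trend (Ctsz added; 1786 genes) and 7 with the crossed replicate block (Ctsd and Ctsz added). Leaving out 1 library gave 0 to 254 genes lower, 0 to 5 higher, and 0 to 1 of the 10 lower (Ctsc, without Nar 1), while 2 to 5 of the 10 were lower at an unadjusted p under 0.05, as 1444 to 2682 of 5339 genes passed in either direction. Here the lone library is assumed to vary like the other group. The median ratio of Ctse to the other members stayed above 0, from 0.32 to 2.01. Depth is unknown, so no counting error can be given.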
